A study of Mus musculus with 21 samples.

Results

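The comparison described here is that of Mdr2 knockout (KO) livers with control livers before any response to surgery, and it covers 9 of the 21 arrays of the study, chosen by the labels that name them KO d0 and control d0. All genes of the array that passed a filter on low signal were described. The study measured total liver RNA of male mice aged 9 months that underwent a 30% partial hepatectomy, and its title concerns DNA breaks caused by chronic liver inflammation and the formation of liver cancer. The lobe removed at surgery is the day 0 sample, so it holds liver tissue before the resection could act on it. KO d0 comprised 6 livers, from mice 250, 254, 258, 312, 332 and 337, all Mdr2-/- of strain FVB129P2. The submitters' design text says that 6 were taken because of concern about variability among KO mice. Control d0 comprised 3 livers, from mice 263, 265 and 303, of strain FVB129P2/FVBNJ. The strain label differed between the groups, so genotype and strain background cannot be told apart in any value below. Each array holds the RNA of 1 liver, and replicates are separate mice. The sources used here give neither how the knockout allele was made nor whether the lobes held tumour nodules.

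Mdr2 is the mouse name of the transporter encoded by Abcb4. It sits in the canalicular membrane of hepatocytes and moves phosphatidylcholine into bile, where the phospholipid takes up bile salts into mixed micelles. Without it bile salts act on the bile duct epithelium as a detergent, and mice lacking the gene are known for inflammation around the bile ducts, scarring of the portal tracts and, late in life, liver tumours. In bulk tissue such as this, fewer cells of a type and less RNA per cell cannot be told apart, and the same holds for more cells and more RNA per cell.

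The authors deposited log2 values, so a difference of 1 is a 2-fold difference. Array medians were 3.92 to 4.04 in the 6 KO livers and 3.83 to 3.86 in the 3 control livers. The distance between the 3' and 5' probe sets of Gapdh, which grows as RNA shortens, was −0.2 to 2.03 in KO livers (the highest in mouse 337) and −0.1 to 0.17 in control livers. Across genes, pairs of arrays correlated at 0.949 to 0.986 within KO, 0.978 to 0.981 within control and 0.9 to 0.954 between KO and control. Of 17 hepatocyte markers tested, 1 rose in KO and none fell, with a median difference of 0.02, and their summed signal was 323000 to 346000 in KO livers and 321000 to 330000 in control livers. The 1 was the haem-binding protein Hpx, higher in KO by 0.51 ± 0.11 (SE, limma adjusted p = 0.00674), a call lost with each array centred on its median (0.0506). Albumin, Alb, had a log2 signal of 14.96 to 15.12 in KO livers and 14.93 to 15.07 in control livers, and the apolipoprotein Apoa1 had 15.1 to 15.3 in KO livers and 15.09 to 15.27 in control livers.

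Of 7320 genes tested with limma, 707 (9.66%) passed an adjusted p of 0.05 between KO d0 and control d0. Of these, 497 (6.79% of those tested) were higher and 210 (2.87%) were lower in KO. The difference was at least 2-fold for 390 of the higher genes and 106 of the lower ones, and at least 8-fold for 70 and 12. In 665 of the 707, the KO and control arrays did not overlap, against 1448 (19.8%) over all genes tested. Calls and overlap were read from the same values, so a larger share among called genes follows from how they were chosen. The median difference over all tested genes was 0.02. With each array centred on its median it was −0.12, and 718 genes were called, 381 higher and 337 lower, so the balance of higher over lower genes depends on that scaling. Fewer genes passed without a control mouse than without a KO mouse. The count was 357 without control mouse 265, 417 without control mouse 303 and 471 without control mouse 263. It was 556 to 690 without each KO mouse in turn. Each control mouse is a larger share of its group than each KO mouse. The part of group size in this gap was not tested. Among genes described below, some calls were lost although the difference grew, and others were lost as it shrank. Where no array of a group exceeded log2 4, which is near background, its fold change is given as a lower bound and its log2 difference is the measured one. Counts of a gene list cover the members that passed the filter, and members near background in control livers passed it through arrays where they were higher.

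Abcb4 itself was examined as a check of the labels. Its log2 signal was 7.59, 8.23, 7.93, 8.96, 8.64 and 7.89 in KO livers 250, 254, 258, 312, 332 and 337, against 9.68, 10.18 and 9.51 in control livers 263, 265 and 303. All KO livers lay below all control livers. The difference was −1.58 ± 0.29 (SE, limma adjusted p = 0.00126), a 3.00-fold lower signal in KO. The sources used here do not give the position of the probe set against the altered stretch of Abcb4, so the remaining signal cannot be read as intact transcript.

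The largest rises in KO were those of Ly6d and Slpi. Ly6d, a surface protein of epithelial cells anchored in the membrane by a lipid, had a log2 signal of 8.88 to 10.71 (median 9.98) in KO livers, against 3.49, 3.52 and 3.34 in control livers. It was at least 60.5-fold higher in KO (difference 6.47 ± 1.16, SE, limma adjusted p = 0.00119). Slpi, a secreted inhibitor of neutrophil elastase, had 10.49 to 12.52 (median 11.47) in KO livers, against 6.32, 4.3 and 5 in control livers, a 75.2-fold higher signal (6.23 ± 0.47, adjusted p = 1.1e-07). Every KO liver exceeded every control liver by more than 4 log2 units in both genes. Tinag, a basement membrane protein first known from kidney tubules, had 5.45 to 8.34 in KO livers and 2.42, 2.29 and 2.33 in control livers (at least 10.2-fold higher, adjusted p = 4.89e-05). Mgp, an inhibitor of calcification held in the matrix, had 6.96 to 8.93 in KO livers and 3.25, 3.03 and 2.49 in control livers (at least 14.5-fold higher, adjusted p = 3.44e-05). Periplakin, Ppl, which links intermediate filaments to desmosomes, had 5.62 to 7.95 in KO livers and 2.38, 2.41 and 2.41 in control livers (at least 6.65-fold higher, adjusted p = 1.84e-06). These 3 genes were at background in every control liver and above it in all 6 KO livers.

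Other genes with rises of more than 3.5 log2 units and no overlap between the groups had varied roles. Ifi27l2b, a small mitochondrial protein of the interferon-inducible Ifi27 family, lay at 8.77 to 9.28 in KO livers and 4.34, 3.72 and 5.13 in control livers (25.1-fold higher, limma adjusted p = 1.56e-05). Acot9, a mitochondrial acyl-CoA thioesterase, was at least 9.65-fold higher in KO, the actin-bundling protein Pls1 at least 5.84-fold, Uap1l1, related to an enzyme of amino sugar synthesis, at least 8.52-fold and the RNA-binding protein Bicc1 at least 5.32-fold. Rad51b, a paralogue of the recombinase that repairs DNA breaks, had 6.77 to 7.73 in KO livers and 4.26, 3.31 and 2.49 in control livers (difference 3.83 ± 0.70, SE, adjusted p = 0.0013). Rtn4, a protein that shapes endoplasmic reticulum tubules, had 11.05 to 11.58 in KO livers and 8.65, 7.2 and 7.04 in control livers, a 12.9-fold higher signal (adjusted p = 1.05e-06). The KO livers were tightly grouped for Ifi27l2b, Acot9 and Rtn4, with SDs of 0.196, 0.257 and 0.182 (n = 6).

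**Figure D1:**
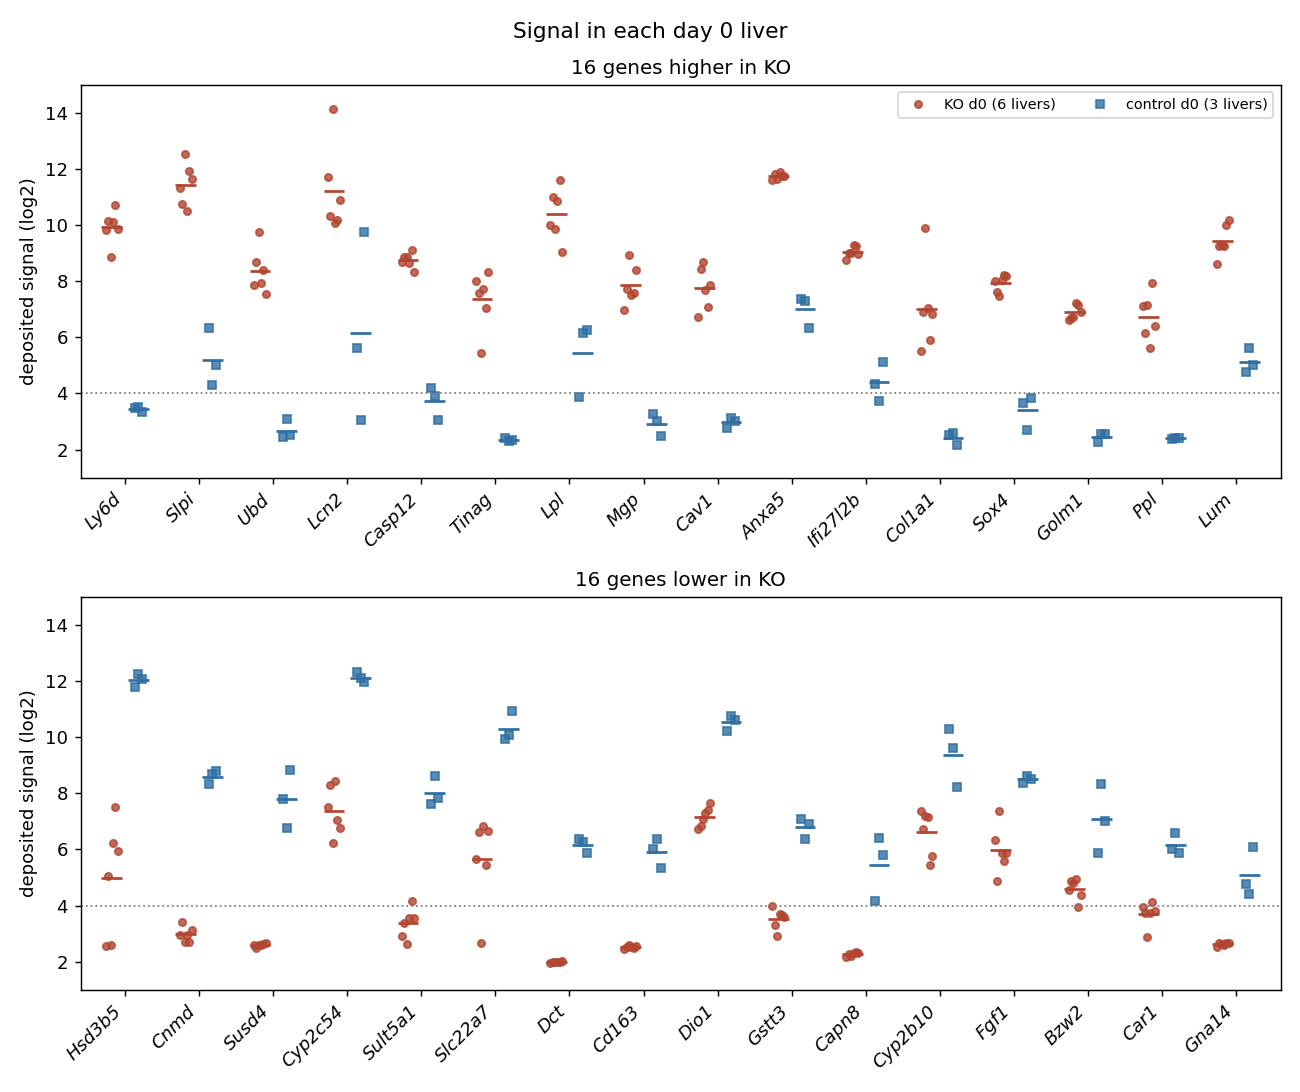
Log2 signal (y axis) of 16 genes higher in KO (top) and 16 genes lower in KO (bottom) in each day 0 liver. Circles are the 6 KO livers, squares the 3 control livers, short bars the group means and the dotted line log2 4. Only named genes that were called and whose groups did not overlap were drawn. That the KO points lie apart from the control points in every gene shown follows from this choice. For Ly6d they lie at 8.88 to 10.71 against 3.34 to 3.52.

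The largest fall in KO was that of Hsd3b5, and the genes next to it had varied roles. Hsd3b5, a steroid dehydrogenase made mainly by male mouse liver, had a log2 signal of 2.57, 5.04, 2.59, 6.24, 7.53 and 5.95 in KO livers, against 11.8, 12.24 and 12.07 in control livers. The difference was −7.05 ± 1.33 (SE, limma adjusted p = 0.00173), 132-fold (SD 2.03 among KO livers and 0.222 among control livers). Hsd3b5 was near background in mice 250 and 258 and well above it in the other 4 KO mice, so the size of its fall varied among them. Cnmd, chondromodulin, known as an inhibitor of vessel growth in cartilage, had 2.7 to 3.42 in KO livers and 8.32, 8.69 and 8.78 in control livers, at least 24.2-fold lower in KO (adjusted p = 1.84e-06). Susd4, a membrane protein that inhibits complement, had 2.5 to 2.68 in KO livers and 7.81, 6.78 and 8.83 in control livers (at least 14-fold lower, adjusted p = 2.29e-06). Dct, a melanin synthesis enzyme, had 1.96 to 2.01 in KO livers and 6.36, 6.25 and 5.86 in control livers (at least 4.46-fold lower, adjusted p = 7.83e-05). Cnmd, Susd4 and Dct were thus at background on every KO array and above it on every control array.

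Dio1, the deiodinase that activates thyroid hormone in liver, had 6.74 to 7.67 in KO livers and 10.23, 10.76 and 10.62 in control livers, a 10.3-fold lower signal in KO (−3.37 ± 0.44, SE, limma adjusted p = 5.57e-05). Gstt3, a glutathione transferase, was at least 6.92-fold lower and the calpain protease Capn8 at least 2.73-fold lower. Among signalling genes, fibroblast growth factor Fgf1 fell by 2.52 ± 0.50, the leukaemia inhibitory factor receptor Lifr by 2.35 ± 0.30 and the natriuretic peptide receptor Npr2 by 2.32 ± 0.42. Lifr had 8.77 to 9.49 in KO livers and 10.76, 12.19 and 11.83 in control livers. The G protein subunit Gna14 was at least 2.11-fold lower, the translation factor relative Bzw2 was 5.62-fold lower and the adhesion molecule Cadm4 fell by 2.05 ± 0.38. For all genes of this paragraph the groups did not overlap.

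Extracellular matrix genes rose together, and no tested member of the 3 matrix lists fell. Of 15 collagens tested, 9 were higher in KO (median difference 2.99). Col1a1, a chain of the main fibrillar collagen of scar tissue, had 5.51, 6.91, 9.9, 7.03, 5.89 and 6.83 in KO livers, against 2.51, 2.6 and 2.17 in control livers (difference 4.58 ± 0.89, SE, limma adjusted p = 0.00214, at least 8.06-fold). Mouse 258 was higher than the other KO mice, and all 6 were above the 3 controls. Its partners followed: Col1a2 by 3.74 ± 0.77, the fibrillar Col3a1 by 4.25 ± 0.56 and Col5a2 by 2.99 ± 0.71. The basement membrane chains Col4a1, Col4a2 and Col4a5 rose by 3.06, 2.62 and 2.99, and the microfibrillar Col6a1 and Col6a3 by 3.12 and 3.83. The size depended on the probe set. Other probe sets of Col1a1, Col1a2 and Col3a1 differed by 0.985, 2.755 and 1.598 and did not pass (limma adjusted p = 0.321, 0.065 and 0.213). Another probe set of Col4a1 passed (2.47, adjusted p = 0.00464). The number of collagens called was 8 to 10 without each array in turn. Col5a2 was lost without control mouse 265 (adjusted p = 0.0565) and with the mean of its probe sets (0.0586).

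Of 13 proteoglycan and elastic fibre genes tested, 9 were higher (median 1.27). Lumican, Lum, a proteoglycan that spaces collagen fibrils, had 8.63 to 10.2 in KO livers and 4.76, 5.62 and 5.02 in control livers (19.8-fold higher, limma adjusted p = 2.23e-05). Fbln5, which helps to assemble elastic fibres, rose by 2.42 ± 0.30 (SE), the microfibril protein Emilin1 by 2.21 ± 0.37 and the proteoglycan biglycan, Bgn, by 1.97 ± 0.28. Only 5 of the 13 passed without control mouse 263 or without control mouse 303. Of 20 genes of matrix proteases, their inhibitors and crosslinkers, 11 were higher (median 1.36), and 7 without control mouse 265 or 303. The macrophage elastase Mmp12 had 6.36 to 8.3 in KO livers and 3.29, 3.35 and 2.78 in control livers (at least 9.6-fold higher, adjusted p = 4.84e-07). The gelatinase Mmp2 was at least 2.34-fold higher, the plasminogen activator Plat at least 2.22-fold and the elastin crosslinker Loxl1 at least 3.34-fold. The collagen chaperone Serpinh1 rose by 2.50 ± 0.37, the procollagen processing enhancer Pcolce by 2.17 ± 0.33 and transglutaminase Tgm2 by 1.75 ± 0.33. Genes for building, crosslinking and degrading matrix were thus among those called higher.

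Of 14 TGF-beta pathway genes, 4 were higher and 1 was lower (median 0.48). The receptor Tgfbr2 had 8.03 to 8.79 in KO livers and 5.94, 6.18 and 6.42 in control livers (5.01-fold higher, limma adjusted p = 0.000149). The induced matrix proteins Ccn2 and Tgfbi rose by 3.18 ± 0.69 and 1.71 ± 0.28 (SE), whereas the activin subunit Inhbc, made by hepatocytes, fell by 1.14 ± 0.30. The ligands Tgfb1, Tgfb2 and Tgfb3 lay at or under log2 4 on all 9 arrays and were not compared. The Ccn2 call was lost without control mouse 265 (adjusted p = 0.0613) and the Inhbc call without control mouse 263 or 265 (up to 0.13), and 2 genes of the list were higher without control mouse 265.

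Of 13 markers of stellate cells and myofibroblasts, the matrix-producing cells of liver, 6 were higher (median 0.77). The platelet-derived growth factor receptors Pdgfrb and Pdgfra rose by 2.95 ± 0.43 and 2.48 ± 0.43 (SE, limma adjusted p = 0.000181 and 0.000776), the intermediate filament vimentin, Vim, by 2.63 ± 0.47 and the contractile proteins Tagln and Tpm1 by 1.71 ± 0.37 and 1.64 ± 0.33. Smooth muscle actin Acta2, the usual marker of myofibroblasts, did not pass. It had 5.11, 5.07, 6.32, 5.35, 5.12 and 5.15 in KO livers and 4.95, 5.14 and 4.61 in control livers (0.45 ± 0.36, adjusted p = 0.523), and only mouse 258 lay clearly above the controls. Desmin (Des), Lrat and Gfap lay at or under log2 4 on all 9 arrays. The summed signal of the tested markers was 3640 to 5470 in KO livers and 1770 to 1920 in control livers. The part of cell number in the matrix rises was not tested.

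Of 13 bile duct and progenitor markers, 7 were higher in KO (median 1.64), and 7 were called without each array in turn. Sox4, a transcription factor of duct development, had 8.02, 7.6, 7.48, 8.05, 8.22 and 8.17 in KO livers, against 3.67, 2.69 and 3.82 in control livers (at least 15.2-fold higher, limma adjusted p = 8.32e-06). E-cadherin, Cdh1, had 9.56 to 10.04 in KO livers and 6.52, 7.55 and 7.67 in control livers (6.15-fold higher, adjusted p = 2.24e-05). Neither gene's groups came near each other. The tetraspanin Tspan8 was at least 3.71-fold and the surface glycoprotein Cd24a at least 5.5-fold higher, the growth factor Pdgfc rose by 2.11 ± 0.41 (SE), and the keratins Krt8 and Krt18 rose by 1.90 ± 0.23 and 1.64 ± 0.26. Krt8 and Krt18 are also the keratins of hepatocytes. The duct keratin Krt19 did not pass, with 3.39 to 5.02 in KO livers and 2.71, 3.4 and 2.98 in control livers (0.93 ± 0.36, adjusted p = 0.123), nor did the duct transcription factor Sox9, with 4.44 to 7.01 in KO livers and 4.73 to 4.89 in control livers (0.54 ± 0.46, adjusted p = 0.549). Krt7 lay at or under log2 4 on all 9 arrays. The summed signal of the tested markers was 10200 to 14700 in KO livers and 3410 to 4340 in control livers.

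**Figure D2:**
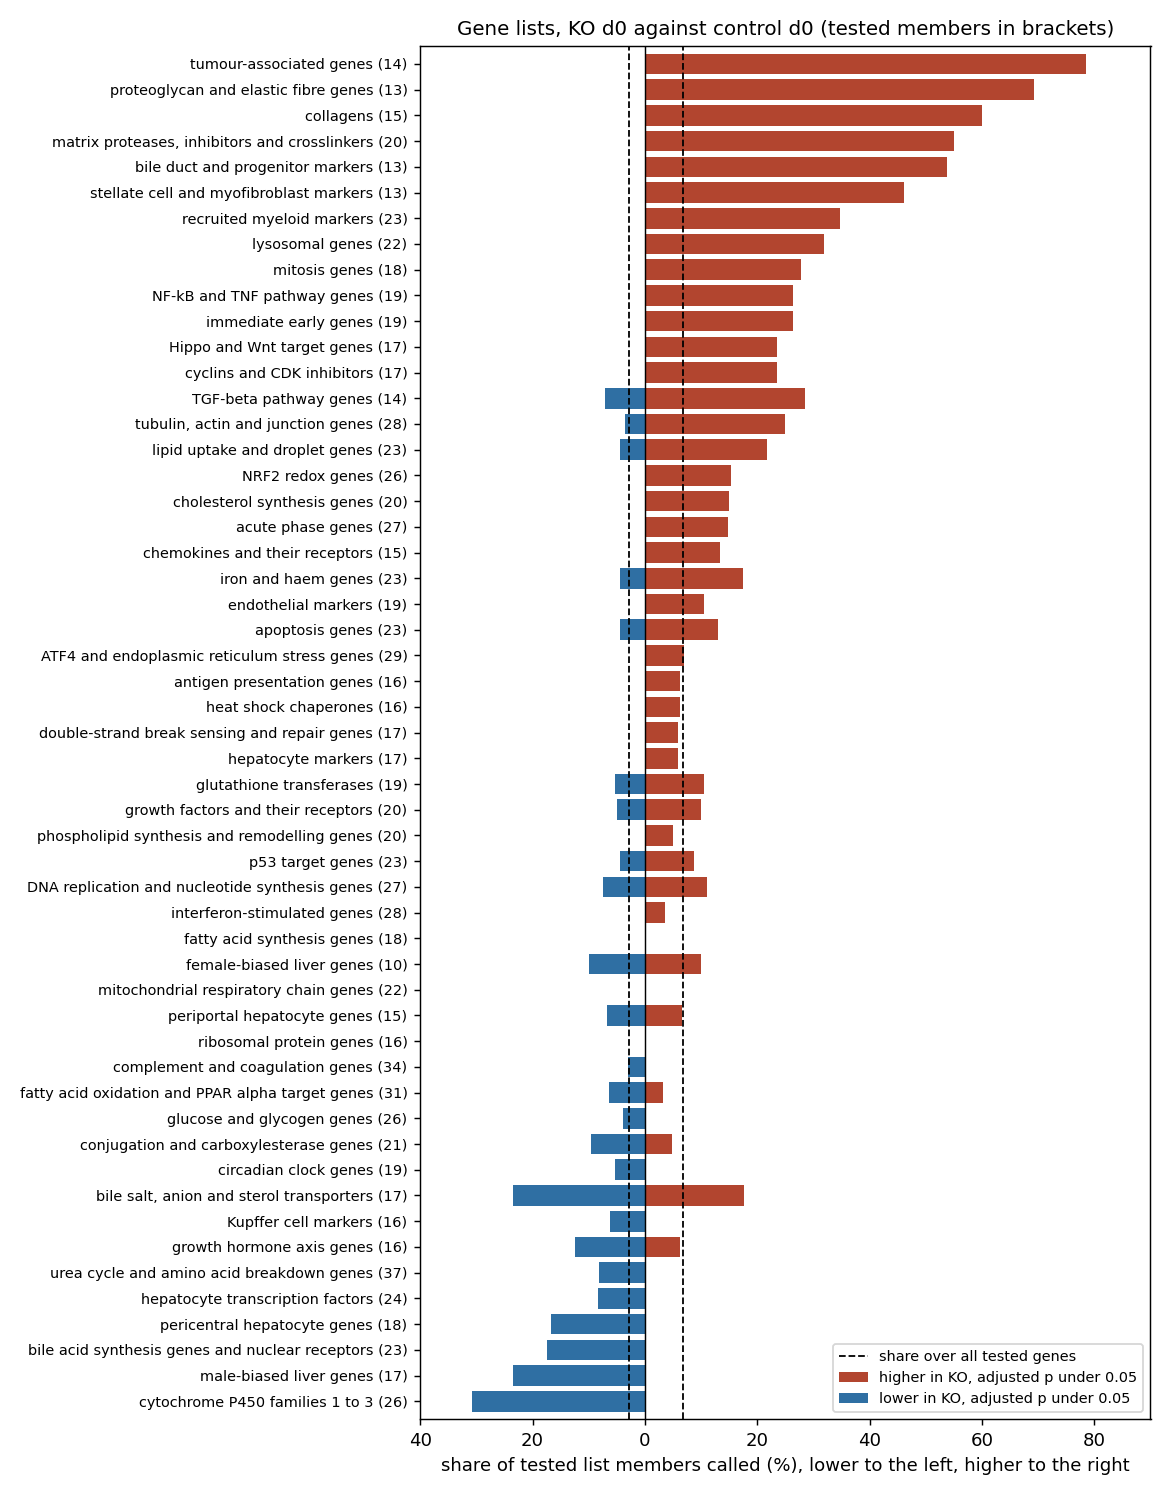
Share of the tested members of each gene list (y axis, number tested in brackets) that passed an adjusted p of 0.05, with members higher in KO to the right and members lower in KO to the left (x axis, percent). Dashed lines are the shares over all 7320 tested genes, 6.79% higher and 2.87% lower. Lists with at least 10 tested members are shown, and matrix, duct and tumour-associated lists lie far to the right, with P450, male-biased and bile acid lists to the left. Lists and members were chosen with earlier results of these data known, so their positions are a description and not a test.

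Of 22 genes on the array that are often high in liver tumours, 14 passed the filter, several of them only through the KO arrays, and 11 were higher in KO (median 3.19), a count that the filter and the choice of the list raise. Besides Ly6d and Sox4 they included the Golgi membrane protein Golm1, with 6.62 to 7.21 in KO livers and 2.28, 2.54 and 2.57 in control livers (at least 7.4-fold higher, limma adjusted p = 1.84e-06). The calcium-binding S100a6 was at least 6.03-fold higher, and the galectins Lgals1 and Lgals3 rose by 3.04 ± 0.38 and 2.47 ± 0.58 (SE). The fetal liver genes Afp, Igf2, Gpc3 and Dlk1 were not among them, as they lay at or under log2 4 on all 9 arrays. The Lgals3 call was lost without control mouse 265 or 303 (adjusted p up to 0.0666).

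Annexins bind membrane phospholipid in a calcium-dependent way. Of 7 tested, 5 were higher (median 1.93). Annexin A5, Anxa5, had 11.62, 11.82, 11.66, 11.9, 11.75 and 11.77 in KO livers, against 7.38, 7.3 and 6.33 in control livers, a 26.9-fold higher signal (4.75 ± 0.31, SE, limma adjusted p = 3.27e-08). Anxa2 had 9.67 to 10.41 in KO livers and 6.28, 5.5 and 5.55 in control livers (19.4-fold higher, adjusted p = 2.29e-06). The 6 KO livers differed by less than 1 log2 unit among themselves for both genes. Anxa3 was at least 2.62-fold higher and Anxa1 rose by 1.93 ± 0.41. The coat proteins of caveolae, Cav1 and Cav2, rose as well: Cav1 had 6.72 to 8.69 in KO livers and 2.76, 3.14 and 3.03 in control livers (at least 13.4-fold, adjusted p = 1.84e-06), and Cav2 rose by 3.26 ± 0.50. Of 28 tubulin, actin and junction genes, 7 were higher and 1 was lower (median 0.53). The higher ones included the tubulins Tubb6 (3.26 ± 0.55) and Tubb2a (2.94 ± 0.57), the gap junction protein connexin 43, Gja1 (2.24 ± 0.50), and thymosin Tmsb10 (2.01 ± 0.35). No other probe set of Gja1 passed (differences of 0.145 to 2.018), nor did another of Tubb2a (1.29). Other probe sets of Tmsb10 gave 0.802, which did not pass, and 2.752, which did.

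Cav1 and Cav2 were also the only 2 called of 19 endothelial markers tested, whose median was −0.05 and whose summed signal was 2430 to 4030 in KO livers and 2380 to 3020 in control livers. Of 16 Kupffer cell markers, none was higher and 1 was lower (median 0.13). That gene was Cd163, the scavenger receptor for haemoglobin bound to haptoglobin, with 2.46, 2.52, 2.58, 2.53, 2.5 and 2.54 in KO livers and 6.02, 6.36 and 5.34 in control livers (at least 3.75-fold lower, limma adjusted p = 7.19e-07). It was at background in all KO livers, while the summed signal of the 16 markers was 5890 to 8440 in KO livers and 4800 to 7420 in control livers.

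Of 23 markers of recruited myeloid cells, 8 were higher and none was lower (median 1.27), and 18 were higher without overlap between the groups, against 11.6% of all tested genes. Lysozyme, Lyz1, had 12.35 to 12.76 in KO livers and 10.29, 10.46 and 9.7 in control livers (5.22-fold higher, limma adjusted p = 0.0117). The fungal receptor Clec7a rose by 2.21 ± 0.36 (SE), the tetraspanin Cd9 by 2.08 ± 0.45, the pore protein Mpeg1 by 1.79 ± 0.39 and the glycoprotein Gpnmb by 1.62 ± 0.39. The macrophage marker Cd68 did not overlap between the groups, with 6.2 to 7.48 in KO livers and 5.81, 4.98 and 4.31 in control livers, but did not pass (1.83 ± 0.77, adjusted p = 0.159). The summed signal of the 23 was 12300 to 18200 in KO livers and 3340 to 5010 in control livers, while Ccr2, Itgam, Itgax and Trem2 lay at or under log2 4 on all 9 arrays. The list held 3 called genes without control mouse 265, 4 without control mouse 303 and 5 without KO mouse 258 or 337. Mpeg1 and Gpnmb were lost without control mouse 265 (adjusted p = 0.0535 and 0.0553) and Lyz1 without control mouse 303 (0.0742). Of 22 lysosomal genes, 7 were higher (median 0.45), among them the hexosaminidase subunit Hexa (2.20 ± 0.33), the glucuronidase Gusb (1.46 ± 0.25) and cathepsin Ctsl (1.24 ± 0.21), and 3 without control mouse 265 or 303 and 4 without KO mouse 258.

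Lymphocyte and neutrophil markers gave little signal. All 19 T and NK cell markers on the array did not exceed log2 4 on any day 0 array, and neither of the 2 that passed the filter through later arrays was called. Of 5 neutrophil markers tested none was called. S100a8, a calcium-binding protein of neutrophils, had 4.14 to 7.29 in KO livers and 4.41 to 5.69 in control livers (0.56 ± 0.87, SE, limma adjusted p = 0.782). Of 3 B and plasma cell markers tested, the adaptor Blnk was higher, with 6.04 to 7.1 in KO livers and 2.89, 4.26 and 3.9 in control livers (2.87 ± 0.36, adjusted p = 4.01e-05), while the B cell genes Ms4a1, Cd79a, Cd79b and Cd22 lay at or under log2 4 on all 9 arrays. Of 2 erythroid markers tested, the red cell transcription factor Klf1 was at least 1.86-fold lower in KO (adjusted p = 1.84e-06), and the haem synthesis enzyme Alas2 did not pass (−0.96 ± 0.44, adjusted p = 0.201). Outside that list, carbonic anhydrase Car1 had 2.88 to 4.14 in KO livers and 6.02, 6.59 and 5.88 in control livers (−2.46 ± 0.33, adjusted p = 7.29e-05). Of the pancreas markers on the array, the elastase Cela1 alone was tested, with 7.67 to 8.59 in KO livers and 10.29, 10.56 and 10.42 in control livers (−2.33 ± 0.42, adjusted p = 0.00128), and Cpa1, Cpb1, Ctrb1 and Prss2 lay at or under log2 4 on all 9 arrays.

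Inflammatory signalling genes rose in part. Of 19 NF-kB and TNF pathway genes, 5 were higher (median 0.69). Ubd, a ubiquitin-like modifier induced by TNF and interferon gamma, had 7.87, 8.67, 9.74, 7.94, 8.39 and 7.56 in KO livers, against 2.44, 3.08 and 2.5 in control livers (at least 20.6-fold higher, limma adjusted p = 5.58e-05). The TWEAK receptor Tnfrsf12a rose by 2.90 ± 0.75 (SE), the leukocyte adhesion molecules Icam1 and Vcam1 by 2.38 ± 0.64 and 2.30 ± 0.53, and the atypical inhibitor Bcl3 by 1.43 ± 0.36. The TNF receptor Tnfrsf1a had 8.14 to 9.33 in KO livers and 7.66 to 8.2 in control livers and did not pass (0.69 ± 0.25, adjusted p = 0.0949), and Tnf and Il6 lay at or under log2 4 on all 9 arrays. Ubd was the 1 gene of the list still called without control mouse 303. Tnfrsf12a, Icam1 and Bcl3 were also lost without control mouse 265 (adjusted p up to 0.108), and Icam1 with no filter on low signal (0.0526). Of 15 chemokines and receptors, 2 were higher, among them Cxcl16, the membrane-bound chemokine (1.77 ± 0.43), and none passed without control mouse 265 (Cxcl16 adjusted p = 0.0693).

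Inflammatory caspases were among the strongest rises. Casp12, a caspase tied to the endoplasmic reticulum, had 8.69, 8.88, 8.85, 8.66, 9.1 and 8.33 in KO livers, against 4.19, 3.92 and 3.05 in control livers, a difference of 5.03 ± 0.36 (SE, limma adjusted p = 7.07e-08). Casp4, which senses bacterial lipopolysaccharide in the cytosol, had 5.65 to 7.26 in KO livers and 3.03, 1.65 and 1.45 in control livers (at least 4.91-fold higher, adjusted p = 5.58e-05). Casp1, which processes interleukin 1 beta, had 6.87 to 7.93 in KO livers and 5.59, 4.88 and 4.5 in control livers (4.85-fold higher, adjusted p = 0.00154). All 3 lie next to each other on chromosome 9, and their groups did not overlap. They were the 3 higher genes of 23 apoptosis genes tested (median 0.07). The 1 lower gene was the killer protein Bik (−1.15 ± 0.36), whose call was lost under 13 of the 19 alternatives that could test it, among them leaving out any array but KO mouse 254.

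Of 28 interferon-stimulated genes 1 was higher (median 0.34), the interferon-damping protease Usp18, with 4.35 to 6.11 in KO livers and 2.37, 2.35 and 2.34 in control livers (at least 2.9-fold, limma adjusted p = 0.00993). Irf7 did not pass (1.02 ± 0.69, SE, adjusted p = 0.426). Of 27 acute phase genes, 4 were higher (median 0.33), and 2 without control mouse 265 or with each array centred on its median. The iron-sequestering protein Lcn2 had 11.7, 10.33, 14.14, 10.08, 10.17 and 10.91 in KO livers, against 5.61, 3.06 and 9.75 in control livers (33.9-fold higher, 5.08 ± 1.11, adjusted p = 0.00576). Control mouse 303 came within 0.4 log2 units of the lowest KO liver, and without control mouse 265 the difference was 3.54 (adjusted p = 0.0763). Haptoglobin, Hp, rose by 0.84 ± 0.17, while serum amyloid Saa1 ranged from 10.96 to 14.67 in KO livers and from 8.7 to 12.86 in control livers and did not pass (1.91 ± 0.88, adjusted p = 0.209). Of 34 complement and coagulation genes 1 was lower, the lectin pathway protease Masp2 (−0.77 ± 0.18), a call lost without control mouse 265 (adjusted p = 0.0606).

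Of 26 cytochrome P450 genes of families 1 to 3, which oxidise drugs and steroids, none was higher and 8 were lower (median −0.44). The count was 3 without control mouse 263, 4 without control mouse 303, 5 without control mouse 265 or KO mouse 258, 332 or 337 and 6 without each other KO mouse. Cyp2c54 had 7.53, 8.29, 6.22, 8.43, 7.04 and 6.77 in KO livers, against 12.31, 12.11 and 11.96 in control livers, a 26.9-fold lower signal (limma adjusted p = 0.00598). Members of this subfamily are near copies of each other, so its probe set may also read its neighbours. Cyp2b10, the classic target of the nuclear receptor CAR, had 5.46 to 7.36 in KO livers and 10.29, 9.63 and 8.23 in control livers (6.84-fold lower, adjusted p = 0.00737). Cyp2g1 was at least 1.44-fold lower, and the ethanol-oxidising Cyp2e1 had 13.68 to 14.15 in KO livers and 14.52 to 14.6 in control livers (−0.65 ± 0.14, SE). CAR itself, Nr1i3, fell by 1.71 ± 0.52 (adjusted p = 0.0449), a call lost without any 1 of 8 arrays (up to 0.19, without control mouse 303), with no filter and with every probe set on its own. The Cyp2b10 call was lost without control mouse 263 (0.0604).

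Of 17 male-biased liver genes, none was higher and 4 were lower (median −0.84), and 2 without any 1 of the control mice. Beside Hsd3b5 and Susd4 the lower genes included the organic anion transporter Slc22a7, with 5.65, 6.62, 2.68, 6.82, 5.44 and 6.67 in KO livers and 9.92, 10.07 and 10.93 in control livers (25.3-fold lower, limma adjusted p = 0.0195). Its call was lost without any 1 control mouse (adjusted p = 0.0521, 0.0673 and 0.0939 without 263, 265 and 303). Of 10 female-biased genes 1 was higher, Rtn4, and 1 lower, the acyl-CoA thioesterase Acot3, with 3.2 to 5.26 in KO livers and 9.53, 7.44 and 5.24 in control livers (−3.71 ± 0.71, SE, adjusted p = 0.00193), with mouse 250 just above the lowest control. The sulfotransferase Sult5a1 had 2.64 to 4.17 in KO livers and 7.63, 8.63 and 7.83 in control livers (−4.67 ± 0.44, adjusted p = 1.84e-06). Growth hormone sets much of the sex bias of mouse liver. Of 16 genes of its axis, 1 was higher and 2 were lower: the insulin-like growth factor binding protein Igfbp1 rose by 3.21 ± 0.89, with overlap between 9.67 to 14.08 in KO livers and 6.56 to 9.74 in control livers, and Igfals, the carrier of circulating insulin-like growth factor, fell by 1.69 ± 0.35, as did Lifr above. The receptor Ghr (−0.67 ± 0.35, adjusted p = 0.274) and Igf1 (−0.12 ± 0.24, adjusted p = 0.841) did not pass. The Igfbp1 call was lost without KO mouse 258, control mouse 265 or control mouse 303 (up to 0.195), with no filter (0.0641) and with the day 0 arrays alone (0.0604).

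Genes of bile formation moved in both directions. Of 17 transporters of bile salts, anions and sterols, 3 were higher and 4 lower (median −0.33), and 2 were lower without control mouse 265 or 303. The efflux pump Abcb1b, a multidrug transporter, had 7.41, 7.52, 7.57, 7.26, 7.56 and 7.9 in KO livers, against 3.66, 4.08 and 3.13 in control livers (3.91 ± 0.40, limma adjusted p = 3.18e-06), and its sister pump Abcb1a was at least 2.44-fold higher. Both lie near Abcb4 on chromosome 5 and belong to the same transporter family. The sterol exporters Abcg8 and Abcg5, which work as a pair, fell by 2.21 ± 0.41 and 1.05 ± 0.27 (SE), and the bile salt importer Slc10a1 fell by 1.22 ± 0.26. Abcg8 had 5.35 to 6.8 in KO livers and 8.07, 8.65 and 8.39 in control livers, with no overlap. The Abcg5 call was lost without control mouse 265 or 303 (adjusted p up to 0.0988).

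Of 23 genes of bile acid synthesis and its nuclear receptors, none was higher and 4 were lower (median −0.40). Nr0b2, the repressor SHP that bile acids induce, had 8.02 to 9.16 in KO livers and 9.74, 9.73 and 9.94 in control livers (2.35-fold lower, limma adjusted p = 0.0143). The rate-limiting enzyme Cyp7a1 had 10.29, 10.38, 8.26, 9.95, 9.97 and 10 in KO livers and 7.99, 8.08 and 10.74 in control livers, and did not pass (0.87 ± 1.05, SE, adjusted p = 0.704). Cyp8b1, which sets the share of cholic acid, did not overlap between the groups, with 3.95 to 8.96 in KO livers and 10.09, 10.08 and 9.46 in control livers, but did not pass (−2.51 ± 0.98, adjusted p = 0.122). The count was 1 or 2 without any KO mouse but 312 and 1 without control mouse 263. No gene of the list passed without control mouse 265 or without control mouse 303, where Nr0b2 reached 0.0532 and 0.0737. Of 20 phospholipid genes, 1 was higher, choline kinase Chka, the entry step of phosphatidylcholine synthesis, with 5.9 to 9.33 in KO livers and 3.27, 4.8 and 5.72 in control livers (2.95 ± 0.73, adjusted p = 0.0141). The Chka call was lost without control mouse 263 or 265 (up to 0.108).

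Lipoprotein lipase, Lpl, had 10.02, 10.99, 9.87, 10.87, 11.6 and 9.05 in KO livers, against 3.89, 6.17 and 6.25 in control livers (31.2-fold higher, limma adjusted p = 7.53e-05). The fatty acid transporter Cd36 had 8.78 to 10.05 in KO livers and 6.93, 5.53 and 4.73 in control livers (11.9-fold higher, adjusted p = 0.000184), the apolipoprotein Apoa4 rose by 2.74 ± 0.51 (SE) and the adipogenic receptor Pparg by 2.58 ± 0.47. These were 4 of the 5 higher genes among 23 of lipid uptake and droplets (median 0.10), with the endothelial lipase Lipg the 1 lower gene (at least 1.3-fold). The Lipg call was lost without control mouse 263 (adjusted p = 0.0524). Of 20 cholesterol synthesis genes, 3 were higher (median 0.57), among them squalene epoxidase Sqle, with 7.15 to 8.12 in KO livers and 5.62, 5.83 and 3.37 in control livers (2.76 ± 0.52, adjusted p = 0.00166), and Hmgcs1 (1.70 ± 0.41), while their regulator Srebf2 did not pass (0.28 ± 0.23, adjusted p = 0.531). Sqle was the 1 gene of the list called without control mouse 265 or without control mouse 303, where Hmgcs1 reached 0.0565 and 0.0967. None of 18 fatty acid synthesis genes passed (median −0.45): the lipogenic factor Thrsp had 9.04 to 12.09 in KO livers and 13.46 to 13.73 in control livers (−2.99 ± 1.02, adjusted p = 0.0753). Of 31 fatty acid oxidation and PPAR alpha target genes 1 was higher and 2 were lower (median −0.32). The higher one was Pdk4, which spares glucose by blocking pyruvate dehydrogenase (2.75 ± 0.71), a call lost without control mouse 265 or 303 (up to 0.12).

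Of 37 urea cycle and amino acid breakdown genes, none was higher and 3 were lower (median −0.38), where 2.87% of all tested genes were lower, among them Haao of tryptophan breakdown, with 10.17 to 10.53 in KO livers and 11.54, 11.22 and 11.7 in control livers (−1.14 ± 0.18, SE, limma adjusted p = 0.000448), and 1 was lower without any 1 of the control mice. Glycogen synthase Gys2 was the 1 lower gene of 26 of glucose and glycogen (−1.20 ± 0.32), lost without control mouse 263 or 265 (adjusted p up to 0.129). Of 24 hepatocyte transcription factors, Nr1i3 and Hlf were the 2 lower ones (median −0.32), and Hlf (−1.79 ± 0.44) was also the 1 lower gene of 19 circadian clock genes (median −0.67). The Hlf call was lost without control mouse 263 or 303 (up to 0.0624). No gene passed among 22 of the mitochondrial respiratory chain (median −0.24) or 16 ribosomal protein genes (median −0.02), by limma at an adjusted p of 0.05.

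Of 19 glutathione transferases, 2 were higher and 1 lower (median −0.15): Gstm3 had 13.23, 13.13, 11.29, 13.29, 13.52 and 12.96 in KO livers, against 10.86, 11.15 and 9.73 in control livers (5-fold higher, limma adjusted p = 0.00557), Gstm5 rose by 1.14 ± 0.19 (SE) and Gstt3 fell as given above. Mouse 258 was close to the controls for Gstm3 and the other 5 KO livers were not. Of 26 genes of the NRF2 redox response, 4 were higher (median 0.15), among them glutathione peroxidase Gpx3 (2.68 ± 0.74), sulfiredoxin Srxn1 (1.53 ± 0.39) and the regulator Nfe2l2 itself, which had 9.75 to 10.61 in KO livers and 9.3, 9.06 and 9.11 in control livers (0.94 ± 0.23, adjusted p = 0.0117). None of these 4 passed without control mouse 265, where the 3 named reached 0.0938, 0.0813 and 0.0673. Gpx3 was also lost without control mouse 263 (0.14) and with no filter (0.0632), Srxn1 with the mean of its probe sets (0.15), and Gstm3 without control mouse 303 (0.0576).

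Of 18 mitosis genes tested, 5 were higher (median 1.21), and 12 were higher without overlap between the groups, against 11.6% of all tested genes. On all 9 arrays 22 genes of the list lay at or under log2 4, among them Top2a, which passed the filter through later arrays. The proliferation marker Mki67 had 4.55, 5.1, 4.2, 5.17, 5.96 and 5.22 in KO livers, against 3.08, 2.78 and 2.83 in control livers (at least 2.05-fold higher, limma adjusted p = 0.0062). The mitotic kinase Cdk1 was at least 2.32-fold higher, the anaphase activator Cdc20 rose by 2.89 ± 0.76 (SE), the condensin Smc2 was at least 1.47-fold higher, and the microtubule regulator Stmn1, outside that list, rose by 2.35 ± 0.41. The list had 2 calls without control mouse 265 or 303, where Cdc20 (adjusted p up to 0.141) and Cdk1 (up to 0.0835) were lost, and Cdc20 was lost with the mean of its probe sets (0.134). Of 27 replication genes, 3 were higher and 2 lower (median 0.37), and 1 was higher without control mouse 263 or 303 and 1 lower without control mouse 265 or 303 or KO mouse 332 or 337. Their summed signal was 1760 to 3110 in KO livers and 3120 to 3940 in control livers. The higher genes included the helicase subunit Mcm6, at 4.82 to 6.64 in KO livers and 2.53, 3.99 and 2.88 in control livers (at least 3.05-fold higher, adjusted p = 0.00312), and the primase Prim1 (1.44 ± 0.38). The Prim1 call was lost without control mouse 263 or 303 (up to 0.191).

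Of 17 cyclins and inhibitors of their kinases, 4 were higher (median 0.08), with 1 without control mouse 265 and 2 without control mouse 263 or 303. The inhibitor p21, Cdkn1a, had 6.83, 7.27, 10.03, 9.07, 8.39 and 7.37 in KO livers, against 4.18, 3.89 and 5.01 in control livers (13.9-fold higher, limma adjusted p = 0.00767), and p18, Cdkn2c, had 5.84 to 6.86 in KO livers and 4.27, 3.43 and 2.88 in control livers (2.83 ± 0.37, adjusted p = 5.36e-05). Cyclin D1, Ccnd1, rose by 1.85 ± 0.49 (SE). Of 23 p53 target genes, 2 were higher and 1 lower (median 0.36), close to the 6.79% higher over all tested genes, the higher ones being Cdkn1a and the antiproliferative Btg2 (2.67 ± 0.73). Without control mouse 265 neither was called (Cdkn1a adjusted p = 0.0527, Btg2 0.104), Btg2 was also lost without control mouse 303 (0.117) and with no filter (0.0581), and Ccnd1 without any 1 control mouse (up to 0.0937) and with the mean of its probe sets (0.0937). Of 17 genes of double-strand break sensing and repair, 1 was higher (median 0.15) and 3 without KO mouse 312. The 1 was the helicase Blm (0.97 ± 0.29, adjusted p = 0.0429), and it was lost without any 1 of 6 arrays; without control mouse 303 its difference was 0.63 (adjusted p = 0.302). Rad51b, described above, is not on that list. The break-sensing protein Trp53bp1 had 5.3 to 6.8 in KO livers and 4.73, 4.34 and 4.87 in control livers, with no overlap. It did not pass (1.28 ± 0.41, adjusted p = 0.0559), but did so under 5 of 21 alternatives.

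Of 19 immediate early genes, 5 were higher (median 0.54), among them Klf6, with 6.38 to 8.26 in KO livers and 4.76, 4.2 and 4.64 in control livers (8.36-fold, limma adjusted p = 6.78e-05), and Ier5 (1.99 ± 0.35, SE; lost with the mean of its probe sets, 0.0548). Fos had 4.49, 7.83, 5.89, 4.26, 9.86 and 6.38 in KO livers and 4.84, 3.61 and 3.15 in control livers and did not pass (2.58 ± 0.90, adjusted p = 0.082). Of 17 Hippo and Wnt target genes, 4 were higher (median 0.50; 2 without control mouse 265), among them Ccn2, the junction protein Ajuba, with 5.97 to 7.15 in KO livers and 3.2, 3.33 and 4.25 in control livers (3.04 ± 0.34, adjusted p = 1.12e-05), and Wwtr1, the YAP partner TAZ (1.31 ± 0.26). Of 20 growth factors and receptors, 2 were higher, Pdgfc and the binding protein Igfbp7 (1.87 ± 0.34), and 1, Fgf1, was lower. Fewer than 4 immediate early genes were called without KO mouse 254, 258, 312 or 337 or without control mouse 263 or 265, with 2 as the lowest count.

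The measured spread was wider among the 6 KO livers than among the 3 control livers. The median SD over all tested genes was 0.294 in KO and 0.214 in control, the KO SD was the larger in 4967 genes (67.9%), and an SD above 1 was found in 192 genes in KO and 110 in control. An SD from 3 livers tends to come out smaller than one from 6, and the part of group size in this gap was not tested. Mouse 258 stood farthest from the control mean in 295 (41.7%) of the 707 called genes, whereas mouse 250 was nearest in 196 (27.7%). The median distance from the control mean in the direction of the call was 1.2 log2 units in mouse 250, 1.33 in 254, 1.62 in 258, 1.31 in 312, 1.36 in 332 and 1.44 in 337. That these medians share a side follows from the choice of called genes, and their order places 258 farthest and 250 nearest.

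List means, centred per gene over the 9 livers, ordered the KO mice differently for different groups. The collagen mean was 0.10 in mouse 250, 0.77 in 254, 1.75 in 258, 0.69 in 312, 0.49 in 332 and 0.91 in 337, against −1.63 to −1.53 in control livers. The acute phase mean was 1.78 in mouse 258, 0.60 in 250 and 0.29 in 337, but −0.57 to −0.32 in the other 3 KO mice, against −0.89 to −0.04 in control livers. The male-biased mean was −1.61 in mouse 258 and −0.76 in 250, and −0.40 to −0.02 in the other 4, against 0.74 to 1.20 in control livers. Mouse 258 was therefore at the extreme of all 3 groups. The mitosis mean was 1.36 in mouse 332 and −0.30 in 258, against −1.12 to −0.71 in control livers, and the immediate early mean was 1.42 in 332 and −0.30 to 0.27 in the other 5, against −0.66 to −0.17 in control livers. The neutrophil mean was 2.15 in mouse 258 and −0.74 to 0.40 in the other 5, against −0.79 to −0.05 in control livers.

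**Figure D3:**
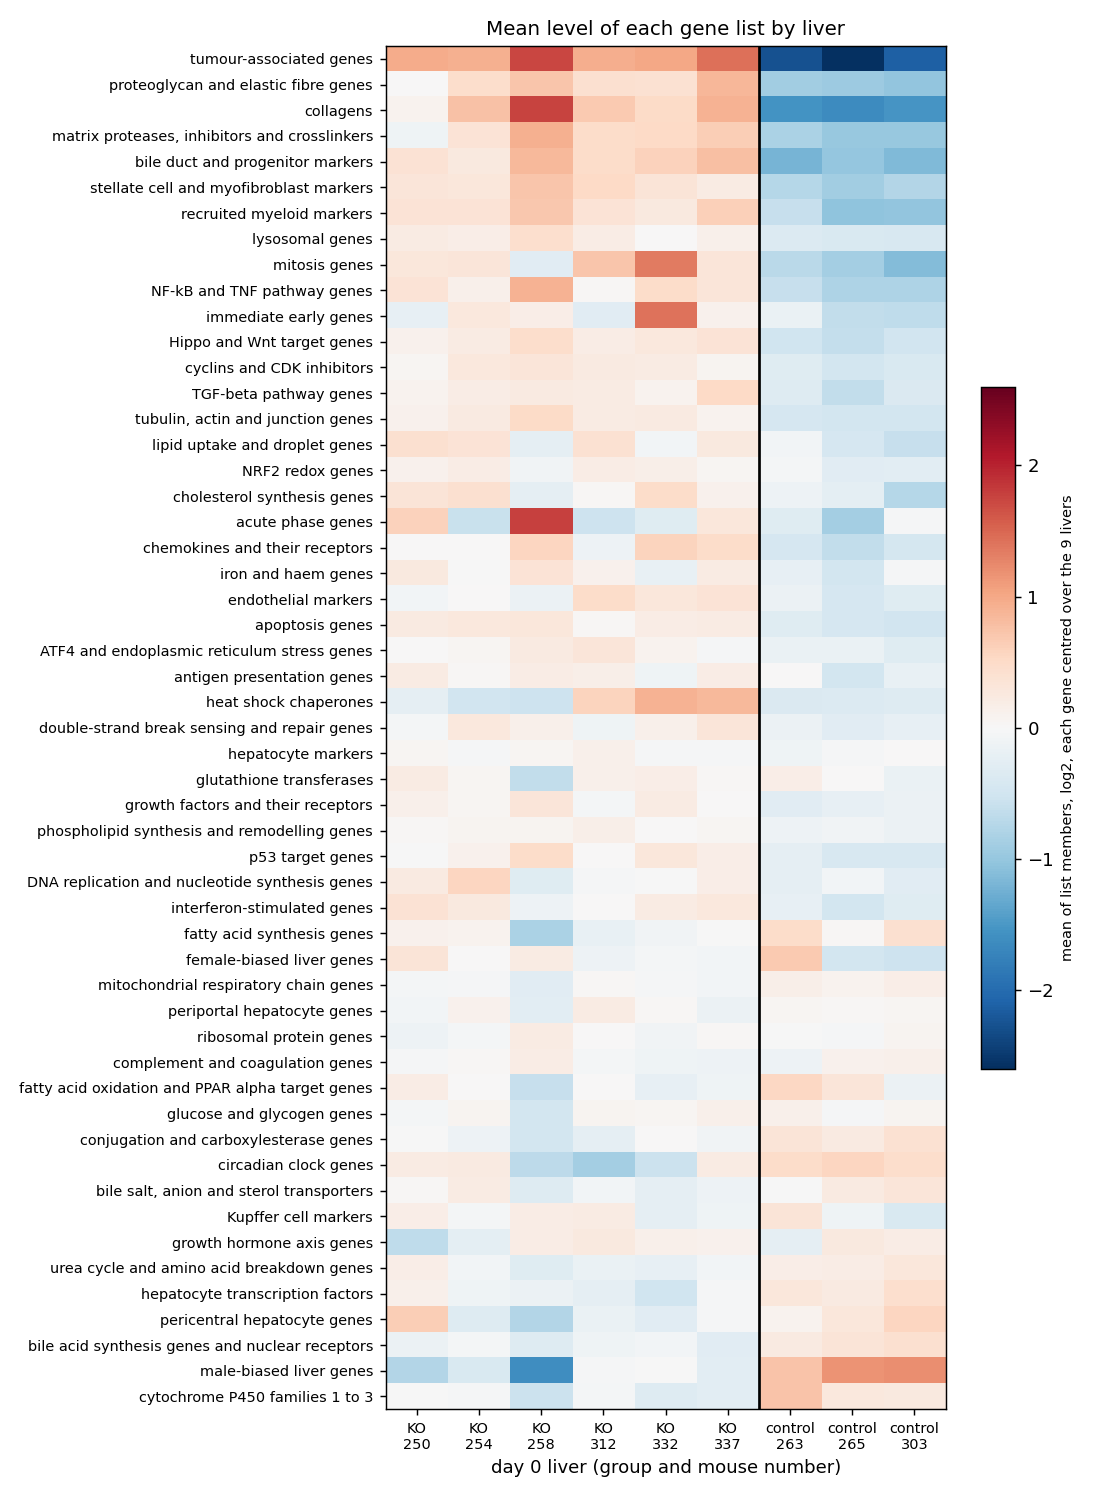
Mean log2 level of the tested members of each list (rows, lists with at least 10 tested members), each gene centred over the 9 day 0 livers, with the 6 KO livers left of the line and the 3 control livers right of it. Red is above and blue below the mean. Matrix, duct and tumour-associated rows separate all KO from all control livers, and so do many other rows. Among these are the mitochondrial respiratory chain (−0.29 to 0.03 in KO, 0.10 to 0.18 in control) and the clock row (−0.88 to 0.23 in KO, 0.45 to 0.56 in control). Acute phase, heat shock, immediate early and clock rows vary within KO, for example from −0.57 to 1.78 for the acute phase mean.

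Of the 20 genes with the widest spread among KO livers, Hsd3b5 alone passed the test between KO and control. The clock output factor Dbp had the largest SD, 2.88, with 11.29, 11.41, 5.77, 5.43, 7.54 and 11.29 in KO livers 250, 254, 258, 312, 332 and 337, against 12, 12.06 and 10.68 in control livers. Mice 250, 254 and 337 matched the controls while 258, 312 and 332 lay at least 3 log2 units lower. The circadian list mean divided the mice in the same way, at 0.21 to 0.23 in mice 250, 254 and 337 and −0.88 to −0.56 in the other 3, against 0.45 to 0.56 in control livers. The sources used here do not give the time of day at which each lobe was taken. Heat shock protein Hspa1a was 6.71, 7.72 and 6.39 in mice 312, 332 and 337 and 2.48 to 3 in the other 3, against 3.16, 3.09 and 4.82 in control livers. The same 3 mice are those whose later samples were taken on day 6, while mice 250, 254 and 258 gave the day 2 samples, so this split cannot be told apart from the day on which a mouse was later sampled. Glucose-6-phosphatase G6pc ranged from 6.96 in mouse 258 to 13.05 in mouse 332, against 9.75 to 11.14 in control livers, and the fatty acid elongase Elovl3 from 2.96 in mouse 258 to 10.47 in mice 312 and 332, against 7.92 to 9.48 in control livers. Among acute phase genes, Saa2 ranged from 9.26 to 14.58 in KO livers (7.6 to 11.65 in control livers) and Orm2 from 5.46 to 12.24 (6.04 to 7.95 in control livers), highest in mouse 258 for both. The neutrophil protease Prtn3 was 7.65 in mouse 258 and 2.27 to 2.59 in the other KO mice, against 2.31 to 2.65 in control livers.

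**Figure D4:**
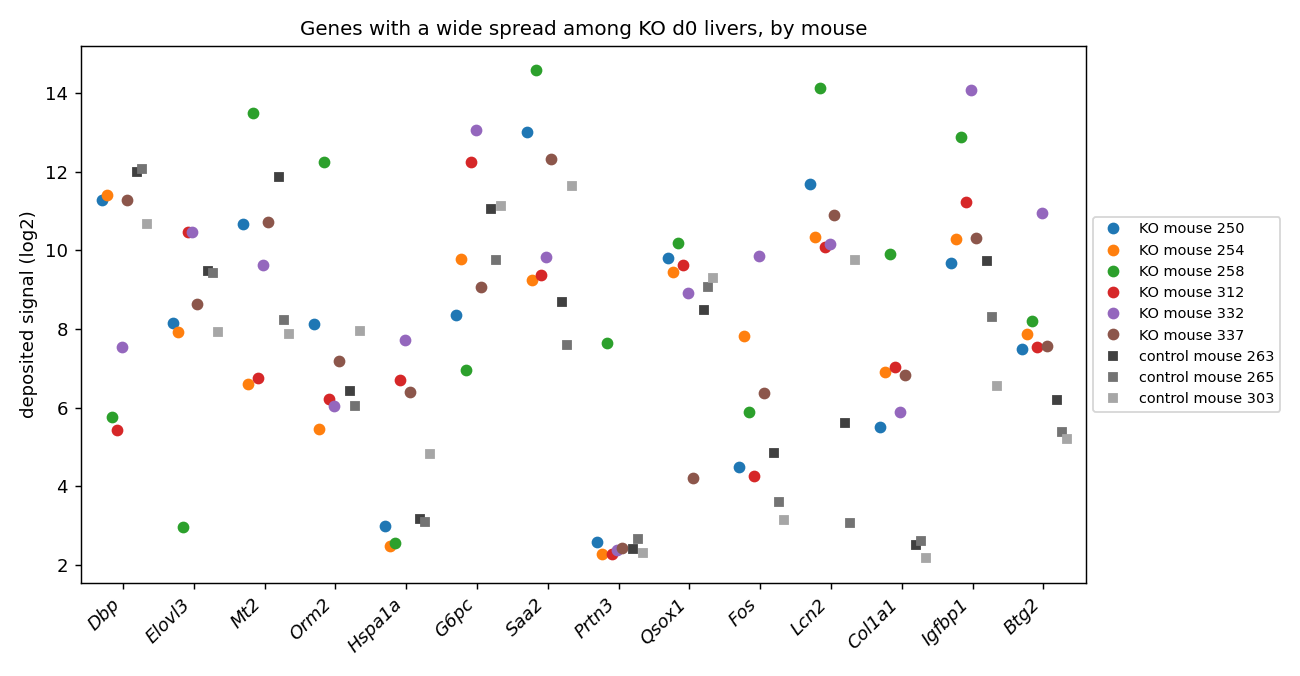
Log2 signal (y axis) of 14 genes with a wide spread among KO livers, with each KO mouse in its own colour (circles) left of the control mice (grey squares). Mouse 258 is the highest KO liver for Mt2, Orm2, Saa2, Prtn3, Lcn2 and Col1a1 and the lowest for Elovl3 and G6pc, and mouse 332 is the highest for Fos, Igfbp1 and Btg2.

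Whether the genotype difference was the same after resection was tested as a difference of differences in the same limma model, with the day 0 arrays shared between the comparisons. For day 2 against day 0, 0 of 7320 genes passed (0%), with 1070 at an unadjusted p under 0.05 and a smallest adjusted p of 0.0733. The control arrays of day 2 changed this count. On that day 228 genes passed without control mouse 264, 74 without 263 and 0 without 265. The Gapdh difference between 3' and 5' probe sets was 0.07 in control mouse 264 on day 2, 1.58 in 263 and 9.5 in 265. Leaving out 264 thus kept the arrays with the larger differences, so the 228 cannot be told apart from RNA quality. For day 6 against day 0, 12 genes (0.164%) passed, 11 with a lower KO minus control difference on day 6 and 1 with a higher one, and 392 had an unadjusted p under 0.05. Without control mouse 303 on day 6, 41 passed, and without any 1 of the KO mice on day 6, 5 to 7 passed. Without control mouse 303 on day 0, 4 passed, and 7 without control mouse 263 on day 0.

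Of the 11, Mcm5, Mcm6, Mcm7, Prim1 and Rpa2 were on the replication list and Mki67, Smc2 and Top2a on the mitosis list. On day 0 Mcm6 averaged 5.61 ± 0.669 in KO livers (SD, n = 6) and 3.13 ± 0.762 in control livers (SD, n = 3). On day 6 it averaged 5.11 ± 0.229 in KO livers and 7.06 ± 0.94 in control livers (SD, n = 3 each). Its KO minus control difference was thus 2.47 on day 0 and −1.95 on day 6, a change of −4.42 ± 0.76 (SE, limma adjusted p = 0.0153). The helicase subunits Mcm5 and Mcm7 changed by −3.25 ± 0.47 and −2.31 ± 0.33, the condensin Smc2 by −3.20 ± 0.44 and the chaperone Dnajc9 by −1.70 ± 0.26, and these 4 kept their call under every alternative run. Mki67 (−3.97), Stmn1 (−3.75), the cohesin regulator Cdca5 (−3.52), the topoisomerase Top2a (−3.40), Prim1 (−3.18) and the single-strand binding subunit Rpa2 (−2.11) changed the same way, each losing its call without at least 1 array, as did Mcm6. On day 0, Mcm7 (0.71 ± 0.22, adjusted p = 0.0466) and Dnajc9 (0.63 ± 0.17, adjusted p = 0.0235) were called higher in KO but lost the call without any 1 control mouse and with each array centred on its median (0.137 and 0.0831), while Mcm5, Top2a and Cdca5 lay at or under log2 4 on all day 0 arrays. In each of the 11 the control mean was higher on day 6 than on day 0, as for Smc2, at 4.10 ± 0.419 in KO livers and 5.84 ± 0.728 in control livers on day 6 and 4.55 ± 0.386 in KO livers and 3.09 ± 0.356 in control livers on day 0. The 1 gene with a higher difference was Klf1 (1.64 ± 0.28), at 3.01 ± 0.207 in KO livers and 4.90 ± 0.41 in control livers on day 0 and at 2.89 ± 0.234 in KO livers and 3.14 ± 0.173 in control livers on day 6.

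**Figure D5:**
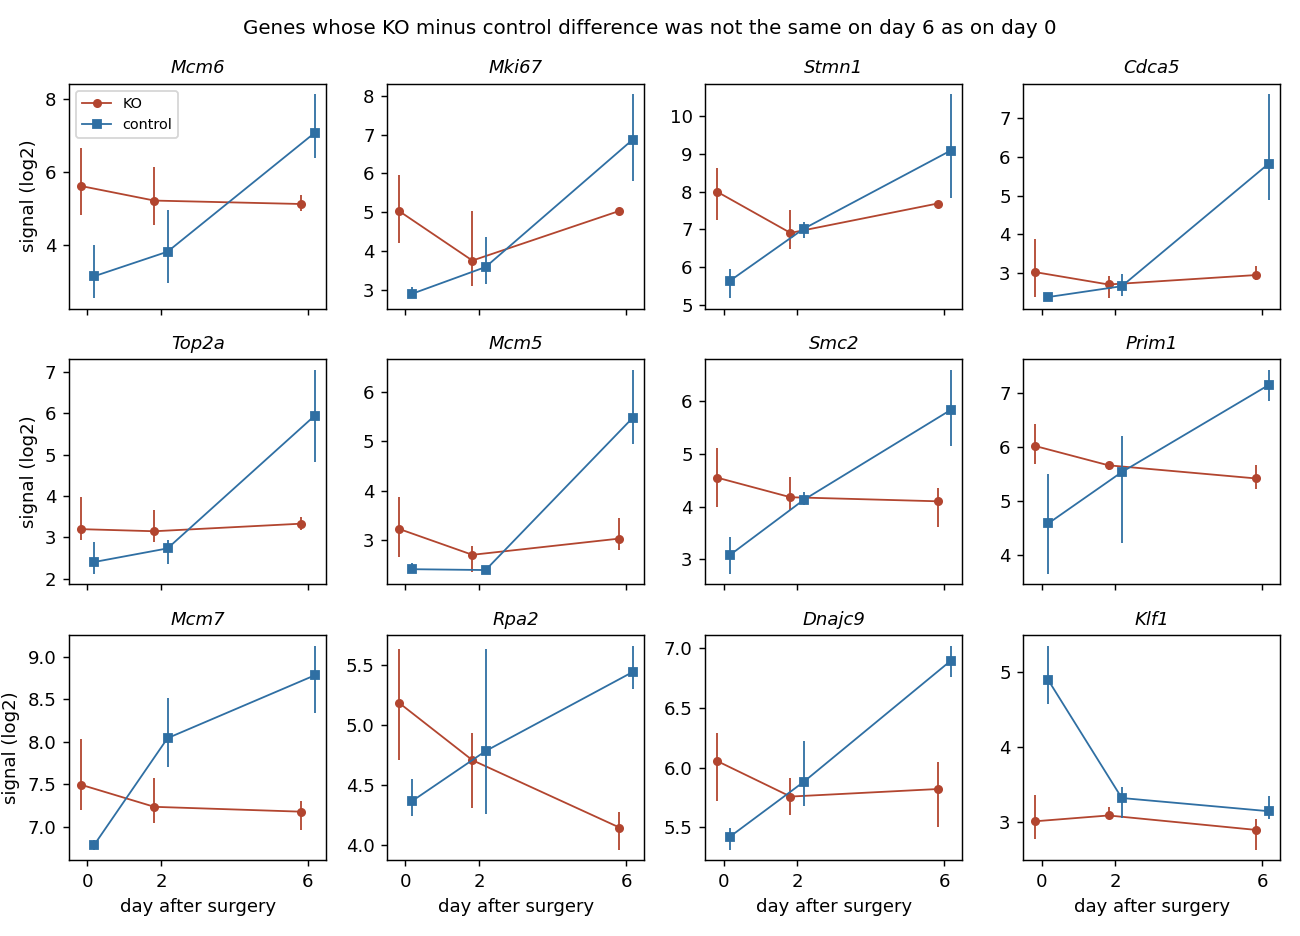
Mean log2 signal (y axis) on days 0, 2 and 6 after surgery (x axis) of the 12 genes whose KO minus control difference differed between day 6 and day 0, for KO (circles) and control (squares), with vertical lines from the lowest to the highest liver. Points are 6 KO livers on day 0 and 3 livers in every other group. In 11 genes the KO mean lies above the control mean on day 0 and below it on day 6, for example Mcm6 at 5.61 against 3.13 and then 5.11 against 7.06. The day 0 difference was not called for Cdca5, Top2a, Mcm5 and Rpa2. Cdca5, Top2a and Mcm5 lay at or under log2 4 on all day 0 arrays, so their day 0 order is one of near-background signals.

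The promoters of the called genes were searched for 6 short motifs on both strands, in RefSeq windows (GRCm38.p6) from 250 bases before to 50 bases after each start, as a description with no test. Of the 7320 tested genes 6015 had a window. The AP-1 motif TGANTCA, the letters bound by FOS and JUN dimers, was found in 42 of 378 genes higher in KO (11.1%), in 17 of 175 genes lower in KO (9.71%) and in 397 of all 6015 (6.6%). The CCAAT box was found in 43.4% of the higher genes, 42.9% of the lower genes and 43.1% of all. The NF-kB motif, GGGA and TTCC with 2 bases of any kind between them, was found in 2.38%, 1.71% and 1.93% of these sets, the interferon motif, GAAA and again GAAA with 2 bases of any kind between them, in 2.65%, 2.86% and 3.81%, the HNF4 motif CAAAGTCCA in 0.265%, 1.71% and 0.715%, and the HNF1 motif, GTTAAT and ATT with 1 base of any kind between them, in 0.529%, 0.571% and 0.482%. The shares of the AP-1 motif were thus above the share of all genes for higher and lower genes alike. The 250 bases before the start of 5 genes described above that hold it are shown to let the motif be seen in place, with the match in capitals, 4 of genes that rose and 1, Capn8, of a gene that fell. They run 5′ to 3′ on the strand of the gene.
Anxa2 (chr9:69453433-69453682, plus strand): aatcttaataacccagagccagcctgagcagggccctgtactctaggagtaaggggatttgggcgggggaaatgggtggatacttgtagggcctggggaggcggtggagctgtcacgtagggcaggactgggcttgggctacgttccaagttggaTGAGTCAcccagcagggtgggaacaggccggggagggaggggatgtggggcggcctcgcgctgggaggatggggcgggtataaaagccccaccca
Mmp12 (chr9:7347124-7347373, plus strand): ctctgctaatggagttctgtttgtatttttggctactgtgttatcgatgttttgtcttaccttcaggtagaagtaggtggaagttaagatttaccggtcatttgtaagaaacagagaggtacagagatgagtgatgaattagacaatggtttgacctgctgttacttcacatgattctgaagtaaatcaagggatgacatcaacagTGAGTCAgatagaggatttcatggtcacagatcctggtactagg
Col6a1 (chr10:76726045-76726294, minus strand): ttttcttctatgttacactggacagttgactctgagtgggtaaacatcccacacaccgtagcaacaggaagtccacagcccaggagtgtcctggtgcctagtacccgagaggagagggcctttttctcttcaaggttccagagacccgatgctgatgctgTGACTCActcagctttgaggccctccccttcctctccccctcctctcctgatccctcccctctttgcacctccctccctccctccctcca
Gja1 (chr10:56377050-56377299, plus strand): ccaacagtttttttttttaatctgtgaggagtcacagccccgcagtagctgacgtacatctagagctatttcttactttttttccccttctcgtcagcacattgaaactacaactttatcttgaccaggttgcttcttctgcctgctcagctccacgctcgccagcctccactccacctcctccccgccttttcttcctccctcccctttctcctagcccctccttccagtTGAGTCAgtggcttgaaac
Capn8 (chr1:182564757-182565006, plus strand): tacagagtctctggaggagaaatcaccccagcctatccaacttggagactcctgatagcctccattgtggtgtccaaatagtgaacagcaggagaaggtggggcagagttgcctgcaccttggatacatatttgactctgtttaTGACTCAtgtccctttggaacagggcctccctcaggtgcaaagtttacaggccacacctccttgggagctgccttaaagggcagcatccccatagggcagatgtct
Counted from the start, the first base of the match lay at −95 in Anxa2, −44 in Mmp12, −90 in Col6a1, −19 in Gja1 and −106 in Capn8. A match is a run of letters and not a measured binding site, and these arrays do not read transcription factor binding.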

How the data were processed

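Liver RNA of 21 samples was measured on 1-colour arrays of 22690 probe sets. The authors deposited log2 values made with GCRMA (version not stated), per the submitters' processing notes. Control probe sets and those with several gene symbols (691) or none (1555) were left out, and the probe set with the highest mean stood for each of 12393 genes. A gene was tested if it exceeded log2 4 on at least 3 of the 21 arrays, which left 7320. One limma model (limma 3.58.1, R 4.3.3) held the 6 groups of genotype and day, with 15 residual degrees of freedom and Benjamini-Hochberg adjustment over all tested genes at 0.05. Figures used Python 3.11.15 and matplotlib 3.10.9. Samples were grouped by title. In simulated data for KO d0 against control d0 with 7320 genes, 62% of genes changed by log2 1 and 87% of those changed by log2 2 were recovered, with 7 false calls. Genes named are a subset of Abcb4, the 30 largest rises and the 30 largest falls among called genes without overlap, up to 8 called members of a list by size and up to 3 not called by smallest p, the 20 genes with the highest SD among KO livers, the largest called differences between days, and a set of familiar liver genes. Col4a2, Irf7 and Lgals3 fall outside this rule and were chosen after their values were seen. Members, the promoters printed and lists were chosen with earlier results of these data known. Alternatives (filter, probe set choice, scaling, variance model, mouse block, each array left out) are given at the end. The number of arrays, 6 and 3, limits the precision. Promoter sequences are from RefSeq.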

Additional observations from a re-analysis of the deposited data

Results flagged for a closer look

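Of 191 values examined in the 6 KO livers, 23 had a highest or lowest liver far from the others. Chance sets apart about 1 in 20 groups, or 9.55 of 191, for independent values chosen without regard to spread. The values were neither, since they came from the same livers and included genes named for their high SD in them. The 23 therefore cannot be judged against 9.55. Mouse 258 held 14 of the 23, with a log2 signal of 9.9 for Col1a1, 12.27 for Col3a1, 6.32 for Acta2, 10.06 for Hexa, 13 for Ctsl, 14.94 for Ttr and 7.65 for Prtn3, and of 2.68 for Slc22a7, 2.88 for Car1, 4.3 for Cadm4, 5.38 for Alas2, 8.26 for Cyp7a1, 11.29 for Gstm3 and 2.96 for Elovl3. Mouse 250 was apart at 5.83 for Fbln5, 3.48 for Lipg and 5.26 for Acot3, mouse 254 at 2.92 for Cyp2g1 and mouse 312 at 8.41 for Pdk4. Mouse 332 was apart at 10.95 for Btg2 and 3.97 for Top2a. Mouse 337 was apart at 4.22 for Qsox1 and at 2.03 for the Gapdh difference between 3' and 5' probe sets.

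The KO minus control difference changed between day 0 and day 6 by the test of the difference itself in 12 genes. The change was −4.42 for Mcm6, −3.97 for Mki67, −3.75 for Stmn1, −3.52 for Cdca5, −3.40 for Top2a, −3.25 for Mcm5, −3.20 for Smc2, −3.18 for Prim1, −2.31 for Mcm7, −2.11 for Rpa2, −1.70 for Dnajc9 and 1.64 for Klf1.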

How the results depend on the processing

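No named gene that was called changed direction under the alternatives run. The median difference over all tested genes did, from 0.02 to −0.12 with each array centred on its median and −0.04 with quantile normalization. The 707 day 0 calls became 1414 with array weights (883 higher, 531 lower, 706 shared with the 707), and 357 to 690 without 1 day 0 array. The later arrays, some with a high Gapdh difference, share the estimate of spread. Without arrays with a Gapdh difference above 1, 885 were called (544 higher, 341 lower, 661 shared). With the beta-actin covariate 846 were called (578 higher, 268 lower, 704 shared). On the day 0 arrays alone 1055 were called (685 higher, 370 lower, 674 shared). With the mouse as a random block, a replicate block that pairs arrays of 1 mouse, 720 were called (510 higher, 210 lower, 698 shared), and of the named genes the call of Bik alone was lost (adjusted p = 0.0559). For day 2 minus day 0, where limma called 0 genes (1070 at an unadjusted p under 0.05), 8 passed with the block, 4 with no filter, 10 with the mean of probe sets, 3 with every probe set, 1 with quantile normalization, 1 with trend and robust estimation, 2 without arrays of high Gapdh difference, 1 with the beta-actin covariate and 0 to 228 without 1 array. For day 6 minus day 0, the 12 calls became 5 with a filter at log2 6, 50 with array weights and 4 to 41 without 1 array. Leaving out the later arrays was chosen after seeing the data. Of 156 named genes called on day 0, 114 kept the call under every alternative that could test them (19 to 21) and 42 lost it under at least 1. Of 21 that missed it 9 passed somewhere, namely Cd68, Fos, Irf7, Thrsp, Tnfrsf1a, Trp53bp1, Mcm5, Rpa2 and Alas2. For 51 of the named called genes, 76 other probe sets were tested. All 76 differed in the same direction and 42 passed. Those that did not pass included a probe set each of Pdgfrb (0.832), Mmp2 (0.665), Cd24a (0.42), Stmn1 (0.123) and Mcm6 (1.027). No other probe set of Gja1, Ccnd1 or Mcm7 passed. Fold changes are thus those of the probe set used. Signals at or under log2 4 are near background, and a group with no array above it gives bounds only. Where only some arrays of a group lay there, as for Hsd3b5, Lcn2, Slc22a7 and Lpl, the fold change is the measured one. Its size then rests in part on signals near background.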
